A study of Homo sapiens with 16 samples.

Results

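The genes described here are 10 mRNAs that encode RNA-binding regulators: MSI1, MSI2, YBX1, PTBP1, PTBP2, ELAVL1, IGF2BP1, IGF2BP2, IGF2BP3 and LIN28B. They were taken by gene symbol, as a set proposed with earlier results of these data known, and each was found in every library, among 20314 genes listed for U251 and 20626 listed for U343. U251 and U343 are established human glioblastoma cell lines. Cells of either line were reverse transfected at 25 nM with miR-137 mimic, or with the control mimic in its place, and total RNA was taken 48 hours later for RNASeq. For RIPSeq, extracts of cells given the same mimics were incubated with antibodies to the poly(A)-binding protein PABP, and the RNA that came down with it was sequenced. The question behind the comparison was which mRNAs lose level, or lose their association with PABP, when miR-137 is supplied. Each of the 8 groups (line, assay, mimic) held 2 libraries, so there were 16 libraries in 4 experiments of 4 libraries. The labels do not say that replicates came from separate cultures, so p-values measure the spread between these libraries, which may be technical. U251 libraries were made by random-hexamer priming and U343 libraries with the TotalScript kit, so a difference between the lines and a difference between the kits cannot be told apart.

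RNA-binding regulators set how an mRNA is spliced, moved, translated and degraded, usually by recognizing short elements in its untranslated regions. Musashi proteins (MSI1 and MSI2) control translation and are known as markers of neural stem and progenitor cells. YBX1 is a cold-shock-domain protein that packages mRNA, PTBP1 and PTBP2 repress exons, and the switch from PTBP1 to PTBP2 accompanies neuronal differentiation. ELAVL1 (HuR) stabilizes mRNAs with AU-rich elements, the IGF2BP proteins are oncofetal mRNA-stabilizing factors, and LIN28B blocks maturation of the let-7 microRNAs. A microRNA lowers its targets mainly by pairing of its seed with sites in the mRNA, after which the poly(A) tail, where PABP sits, is shortened.

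The microRNA whose mimic was supplied is encoded on chromosome 1, and its mature sequences are shown because the seed defines which mRNA sites it can pair with. Both are written 5′ to 3′ from RefSeq (GRCh38.p14), with the seed, bases 2 to 8, in capitals.
hsa-miR-137-3p: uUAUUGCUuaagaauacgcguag
hsa-miR-137-5p: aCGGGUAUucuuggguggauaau
The 3p strand (chr1:98046091-98046113, minus strand) is the one usually called miR-137, and the DNA letters that pair with its seed are AGCAATA. Among 2370 mature human microRNA names in the table, 0 others carry either seed.

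On hg18, the build of the deposited tables, MSI1 lies at chr12:119263516-119291341 and MSI2 at chr17:52688930-53112298. YBX1 is at chr1:42920653-42940607, PTBP1 at chr19:748392-763327, PTBP2 at chr1:96959763-97053187 and ELAVL1 at chr19:7929457-7976529. The remaining members are IGF2BP1 (chr17:44429773-44488506), IGF2BP2 (chr3:186844221-187025521), IGF2BP3 (chr7:23316353-23476520) and LIN28B (chr6:105511616-105637899). Reads were counted over the exons of 1 merged transcript per gene. YBX1 has 10 named pseudogenes in RefSeq, IGF2BP2 has 3, IGF2BP3 has 2 and PTBP1 has 1, and how reads that match such copies were assigned is not given in the sources used here, so the levels of these genes are uncertain by that amount. The gene span of IGF2BP2 also overlaps that of C3orf65 over 4916 bases on the opposite strand. Whether their exons overlap was not examined, and reads from any shared exon could not be told apart without strand.

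Depth was 10156675 to 30731476 counted reads per library in U251 and 37736206 to 45134766 in U343. In RNASeq of control cells, 7 of 8 glioma and astrocyte markers reached 1 CPM (counts per megaread of library size, TMM-scaled) in both libraries of either line. AQP4 was at 0 in U251 and SLC1A3 was at most 0.185 CPM in U343, while 0 of 2 leukocyte markers reached that level in either line. In U343 controls 1 of 2 epithelial markers reached it (CDH1, 65.7 to 120.0 CPM, with EPCAM at most 0.0433) and 1 of 2 endothelial markers (CDH5, 15.1 to 27.2 CPM, with PECAM1 at most 0.792), and none of these did in U251. Neuron markers reached it for 4 of 6 in U251 and 2 of 6 in U343, and summed to 1612 to 1671 CPM and 40.4 to 44.1 CPM, mostly NEFL in U251 (1515 to 1578 CPM). With miR-137 the neuron sum was 365 to 369 CPM in U251 and 85.7 to 118 CPM in U343. NEFL alone fell in U251 (to 241 to 263 CPM), where MAP2, SNAP25 and SYP were higher and the ranges of GAD1 and SLC17A7 overlapped. The glioma and astrocyte sum was 5877 to 6129 CPM in U251, against 12201 to 12576 CPM in its controls. There VIM, CD44, NES, GFAP and S100B were lower, the ranges of SOX2 and SLC1A3 overlapped, and AQP4 was at most 0.18 CPM. In U343 that sum was 12260 to 14031 CPM with miR-137, against 11637 to 12477 CPM in controls. The part of these marker levels in the changes described next was not tested. RIPSeq had no library from a mock precipitation.

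Libraries stood apart in 2 groups. Comparing the reads of the replicates of a group, where sampling noise alone gives a chi-square averaging about 1, the average over genes was 181 for the U251 RIPSeq controls and 145 for U343 RNASeq with miR-137. It was 2.17 for U251 RIPSeq with miR-137, the closest pair, and 8.004 to 18.02 in the other groups. A list of 12 interferon-response genes, which cells switch on when they sense foreign RNA, summed to 111 to 173 CPM in the 8 control libraries and to 10466 to 11929 CPM in 7 of the 8 miR-137 libraries. In the remaining one, U343 RNASeq miR-137 replicate 1, it summed to 119 CPM, the control level, and 0 of the 12 genes was at 0 in any library. By edgeR's quasi-likelihood test with Benjamini-Hochberg adjustment over all genes, 12 of 12 rose in U251 RNASeq, 12 of 12 in U251 RIPSeq and 11 of 12 in U343 RIPSeq. In U343 RNASeq 0 of 12 was called by edgeR, with 6 at an unadjusted p under 0.05 and 8 called higher by DESeq2, and the median log2 fold change of the list was 5.84. The part of this response in the changes of the regulators was not tested, other than by the values of that 1 library, which are given beside the U343 RNASeq results of the members. In bulk samples like these, fewer cells expressing a gene and less RNA per cell cannot be told apart.

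YBX1 mRNA was lower with miR-137 in each of the 4 experiments, by 2.75 to 4.58 times. In U251 RNASeq its level in CPM, scaled by TMM factors within the experiment, was 239 and 294 in the controls and 74.9 and 84.0 with miR-137. In U251 RIPSeq it was 133 and 219 in the controls and 63.2 and 64.7 with miR-137. The groups did not overlap in either assay, although the RIPSeq controls lay further apart than the RNASeq ones. With 2 libraries per group, non-overlap is a weak criterion for this and the other members, and its share over all genes was not counted. In U343 RNASeq YBX1 measured 1074 and 1163 CPM in the controls against 201 and 288 CPM with miR-137. In U343 RIPSeq it measured 1070.2 and 1097 CPM against 265 and 247 CPM. The U343 RNASeq library without the interferon response, replicate 1, was the one at 201 CPM, so YBX1 was low there as well.

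The edgeR log2 fold change of YBX1 was -1.74 ± 0.14 (SE) in U251 RNASeq (adjusted p = 4.41e-07), -2.20 ± 0.20 in U343 RNASeq (adjusted p = 0.00841) and -2.08 ± 0.11 in U343 RIPSeq (adjusted p = 6.68e-06). In U251 RIPSeq it was -1.46 ± 0.33 with an adjusted p of 0.123, which did not pass. Without control replicate 1 of that experiment edgeR gave -1.78, and without control replicate 2 it gave -0.97, both with an adjusted p under 0.05, but in those fits 68.1% and 74.4% of all genes were called. In U343 RNASeq the call was lost when either control library was left out (adjusted p of 0.151 and 0.170), with values of -2.24 and -2.13, and no gene was called in those fits. With 1 of the miR-137 libraries at a time the U343 RNASeq value was -2.48 for the library without the interferon response and -1.97 for the library with it. In such a fit the lone library is assumed to vary like the control pair. That pair lay far closer together than the miR-137 pair, so no p-value is given for these fits. From the lowest fold change upward, YBX1 ranked 291 of 13052 genes in U251 RNASeq, 406 of 14087 in U251 RIPSeq, 45 of 15088 in U343 RNASeq and 113 of 14866 in U343 RIPSeq.

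MSI1 mRNA moved differently in the 2 lines. In U251 RNASeq it measured 5.49 and 4.95 CPM in the controls and 2.08 and 3.73 CPM with miR-137, from 86 and 81 reads against 23 and 42 reads. In U251 RIPSeq it measured 18.5 and 13.5 CPM in the controls and 2.07 and 3.31 CPM with miR-137, from 431 and 377 reads against 54 and 90 reads. The groups did not overlap in either assay of U251, and the larger separation was in the PABP-bound RNA. In U343 RNASeq the direction was the opposite, with 17.5 and 15.3 CPM in the controls and 26.3 and 25.6 CPM with miR-137. In U343 RIPSeq MSI1 measured 44.8 and 54.6 CPM in the controls and 50.4 CPM in each miR-137 library, so these groups overlapped.

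By edgeR, MSI1 fell in U251 RNASeq by 0.84 ± 0.27 (SE) on the log2 scale (adjusted p = 0.0172). That call held in 6 of 10 alternative settings, and without miR-137 replicate 1 the value was -0.48 (adjusted p = 0.203). In U251 RIPSeq the log2 fold change was -2.57 ± 0.37, a level 5.93 times lower, at rank 45 of 14087 genes from the lowest, with an adjusted p of 0.0644. It passed by DESeq2 (-2.51, adjusted p = 2.51e-05) and in the fits without either control replicate (-2.32 and -2.68), where most genes passed. In U343 RNASeq MSI1 rose by 0.66 ± 0.12 on the log2 scale (adjusted p = 0.0300), a call that was lost when either control library was left out (adjusted p of 0.214 and 0.286). MSI1 was higher there in the library without the interferon response (0.68) and in the one with it (0.63). In U343 RIPSeq its log2 fold change was 0.02 ± 0.11 (adjusted p = 0.888).

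**Figure D1:**
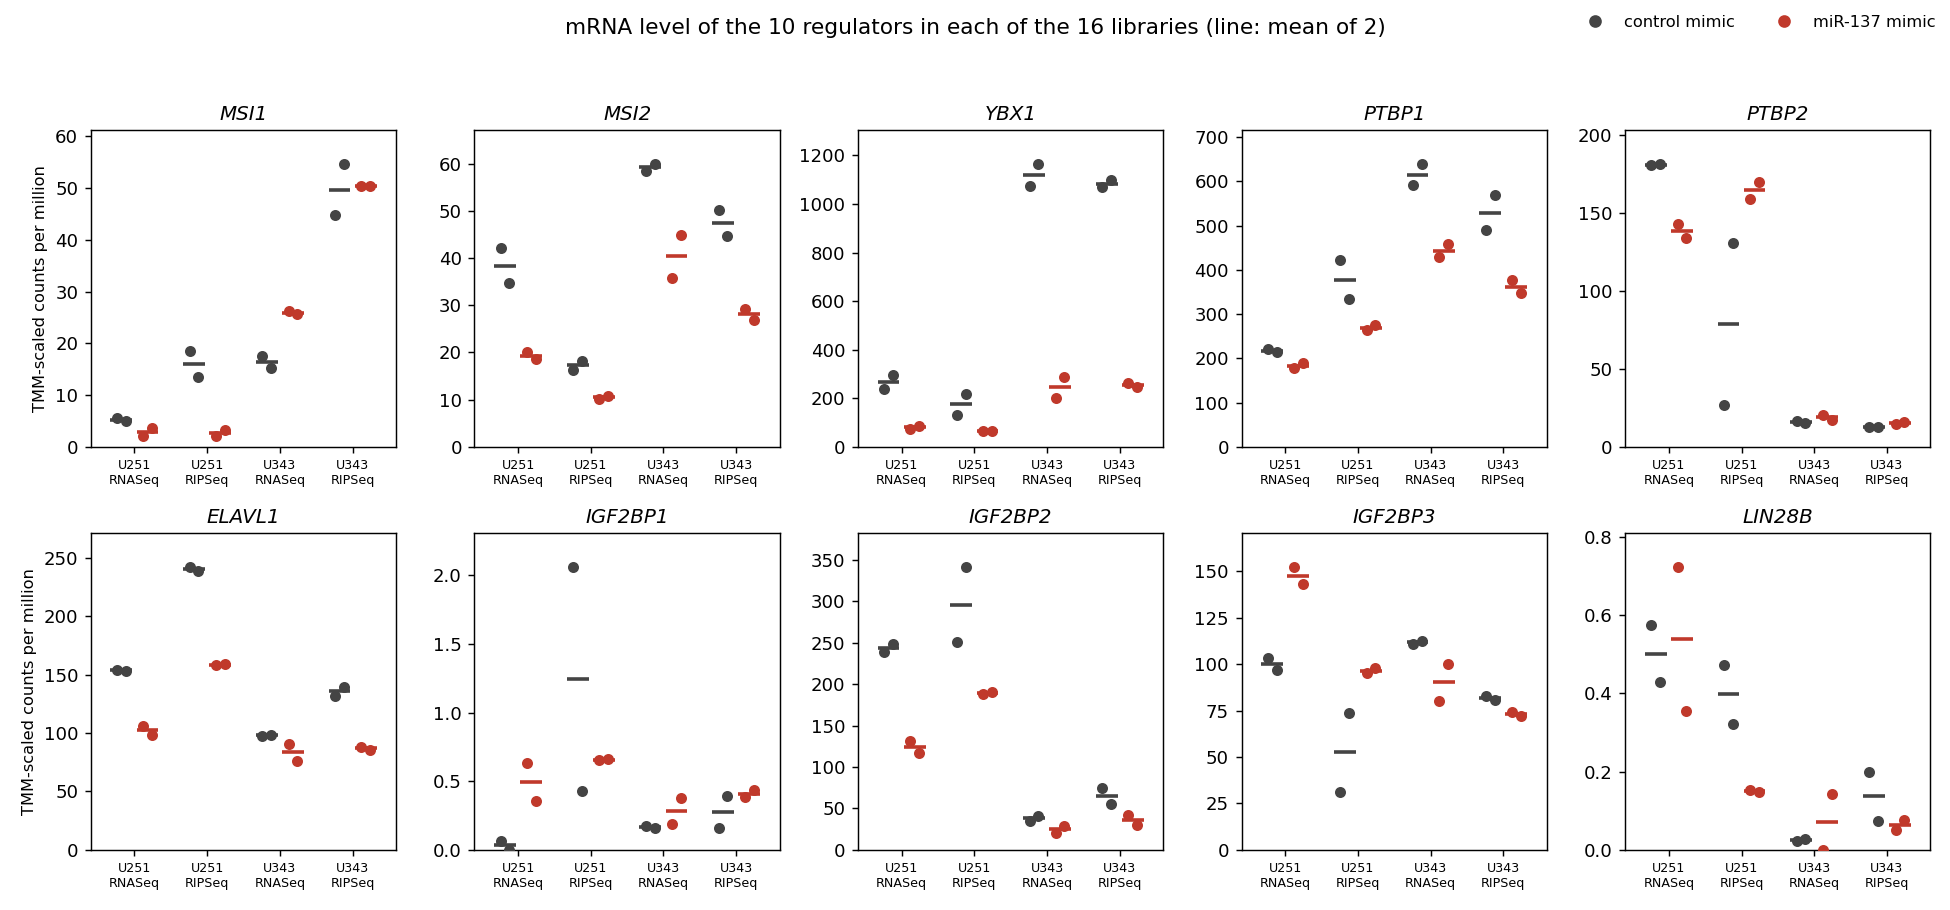
TMM-scaled CPM of each regulator (vertical axis, linear, a different range in each panel) in every library, by cell line and assay, with the 2 control libraries in gray, the 2 miR-137 libraries in red and a line at each mean; the 4 experiments were scaled separately. YBX1 is lower with miR-137 in each experiment, whereas MSI1 is lower in U251 and not in U343.

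MSI2, the paralog of MSI1 with a similar translational role, was lower with miR-137 in all 4 experiments, without overlap of the groups. Its level went from 42.1 and 34.6 CPM to 20.0 and 18.6 CPM in U251 RNASeq and from 16.3 and 18.2 CPM to 10.1 and 10.7 CPM in U251 RIPSeq. In U343 it went from 58.5 and 59.8 CPM to 35.7 and 44.9 CPM in RNASeq and from 50.1 and 44.6 CPM to 29.2 and 26.9 CPM in RIPSeq. The fall passed the edgeR test in U251 RNASeq (log2 fold change -0.99 ± 0.15, adjusted p = 0.000101) and U343 RIPSeq (-0.75 ± 0.10, adjusted p = 0.000427). It did not pass in U343 RNASeq (-0.55 ± 0.14, adjusted p = 0.0595), where the library without the interferon response was the lower of the pair, or in U251 RIPSeq (-0.72 ± 0.24, adjusted p = 0.208). With 1 miR-137 library at a time in U343 RNASeq, the value of MSI2 was -0.73 for the library without the interferon response and -0.40 for the one with it.

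On the TMM scale the members of the polypyrimidine-tract-binding pair were both lower with miR-137 in U251 RNASeq. In the other 3 experiments PTBP1 was lower and PTBP2 higher. A difference between the genes was not tested. PTBP1, the form of dividing cells, was at 591 and 638 CPM in U343 RNASeq controls and at 428 and 458 CPM with miR-137. In U343 RIPSeq it was at 489.6 and 569 CPM in controls and at 376 and 348 CPM with miR-137. PTBP1 fell in U343 by 0.47 ± 0.09 on the log2 scale in RNASeq (adjusted p = 0.0351) and by 0.55 ± 0.11 in RIPSeq (adjusted p = 0.00453, edgeR). In RNASeq the library without the interferon response was the one at 428 CPM and gave -0.52, and the one with it gave -0.43. The RNASeq call was lost without either control library (adjusted p of 0.236 and 0.304), and the RIPSeq call without control replicate 2 (adjusted p = 0.0521). In U251 its log2 fold changes of -0.24 ± 0.13 in RNASeq (adjusted p = 0.114) and -0.49 ± 0.22 in RIPSeq (adjusted p = 0.316) did not pass, although the scaled libraries did not overlap. Against counted totals, without TMM factors, its odds ratios of control over miR-137 in U251 RNASeq ran from 0.908 to 1.07. The lower level of PTBP1 in U251 RNASeq thus rests on the scaling.

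PTBP2, the form of neurons, was at 181 CPM in both U251 RNASeq controls and at 143 and 134 CPM with miR-137, and it fell by 0.39 ± 0.12 on the log2 scale (edgeR adjusted p = 0.0167). This call was lost with upper-quartile scaling (-0.25, adjusted p = 0.0979) and without either control library (adjusted p of 0.0854 and 0.101). In U251 RIPSeq the controls were at 26.9 and 131 CPM and the miR-137 libraries at 159 and 170.2 CPM. The low value belonged to control replicate 1, and the log2 fold change was 1.06 ± 0.75 (adjusted p = 0.497), 0.33 without that library and 2.70 without the other control. In U343 PTBP2 was at 16.4 and 15.1 CPM in RNASeq controls, 20.6 and 17.1 CPM with miR-137, 12.5 CPM in both RIPSeq controls and 14.5 and 16.0 CPM with miR-137. It rose in U343 RIPSeq by 0.29 ± 0.10 on the log2 scale (adjusted p = 0.0439), a call that was lost by DESeq2 (adjusted p = 0.144) and without each of the 4 libraries in turn (adjusted p of 0.0533 to 0.217). In U343 RNASeq the value was 0.26 ± 0.15 (adjusted p = 0.268). It was 0.39 for the library without the interferon response, at 20.6 CPM, and 0.11 for the one with it.

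ELAVL1 was lower with miR-137 in each experiment, with no overlap of the groups. It went from 154 CPM in both controls to 106 and 98.6 CPM in U251 RNASeq and from 242 and 239 CPM to 158 and 159 CPM in U251 RIPSeq. In U343 it went from 97.6 and 98.3 CPM to 91.1 and 76.4 CPM in RNASeq and from 132 and 139.9 CPM to 88.5 and 85.1 CPM in RIPSeq. The edgeR test was passed in U251 RNASeq (-0.59 ± 0.12, adjusted p = 0.00117) and in U343 RIPSeq (-0.65 ± 0.08, adjusted p = 0.000407). The values of -0.60 ± 0.21 in U251 RIPSeq (adjusted p = 0.220) and -0.23 ± 0.12 in U343 RNASeq (adjusted p = 0.245) did not pass. In U343 RNASeq the library without the interferon response gave -0.11 and the one with it gave -0.37.

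Of the IGF2BP family, IGF2BP2 was lower and IGF2BP3 was not uniform. IGF2BP2 measured 239 and 248 CPM in U251 RNASeq controls against 131 and 117 CPM with miR-137, and 250.5 and 341 CPM in U251 RIPSeq controls against 188 and 190.3 CPM. In U343 it measured 34.5 and 41.2 CPM against 20.5 and 29.3 CPM in RNASeq and 74.2 and 55.6 CPM against 42.0 and 29.8 CPM in RIPSeq. IGF2BP2 fell in U251 RNASeq (-0.97 ± 0.13, adjusted p = 2.96e-05) and in U343 RIPSeq (-0.85 ± 0.18, adjusted p = 0.00535) by edgeR. It did not pass in U251 RIPSeq (-0.64 ± 0.25, adjusted p = 0.256) or in U343 RNASeq (-0.60 ± 0.21, adjusted p = 0.121). In U343 RNASeq the library without the interferon response gave -0.88 for IGF2BP2 and the one with it -0.37.

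IGF2BP3 was higher with miR-137 in U251 and lower in U343. In U251 RNASeq it was at 103 and 97.1 CPM in the controls and at 152 and 143 CPM with miR-137, a rise of 0.56 ± 0.12 on the log2 scale (edgeR adjusted p = 0.00175). In U251 RIPSeq the controls were at 31.0 and 73.9 CPM and the miR-137 libraries at 95.3 and 97.7 CPM. As for PTBP2, control replicate 1 was the low one, and the log2 fold change of 0.88 ± 0.47 (adjusted p = 0.378) became 0.38 without it and 1.73 without the other control. In U343 the values were 111 and 113 CPM against 80.4 and 100.2 CPM in RNASeq (-0.31 ± 0.14, adjusted p = 0.182) and 83.0 and 80.6 CPM against 74.1 and 72.2 CPM in RIPSeq (-0.16 ± 0.08, adjusted p = 0.112). Neither passed. With 1 miR-137 library at a time the U343 RNASeq value was -0.48 for the library without the interferon response and -0.17 for the one with it.

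IGF2BP1 and LIN28B were near the limit of detection in these cells. IGF2BP1 had 1 and 0 reads in U251 RNASeq controls and 7 and 4 reads with miR-137, a ratio of 15.8 by summed reads with an exact 95% interval of 2.29 to 678. In U251 RIPSeq it had 48 and 12 reads in the controls and 17 and 18 with miR-137, and in U343 between 6 and 17 reads in each of the 8 libraries. These intervals cover counting error only. LIN28B had 4 to 11 reads per library in U251 and 0 to 9 in U343. Its U251 RIPSeq libraries had 11 and 9 reads in the controls and 4 in each miR-137 library, a ratio of 0.385 (exact 95% interval 0.147 to 0.912). In U251 RNASeq the ratio was 1.07 (0.464 to 2.42). A filter on low counts removed both genes from the tests of miR-137 against control in RNASeq and LIN28B from those in RIPSeq, and IGF2BP1 did not pass in RIPSeq of either line (adjusted p of 0.597 and 0.300).

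**Figure D2:**
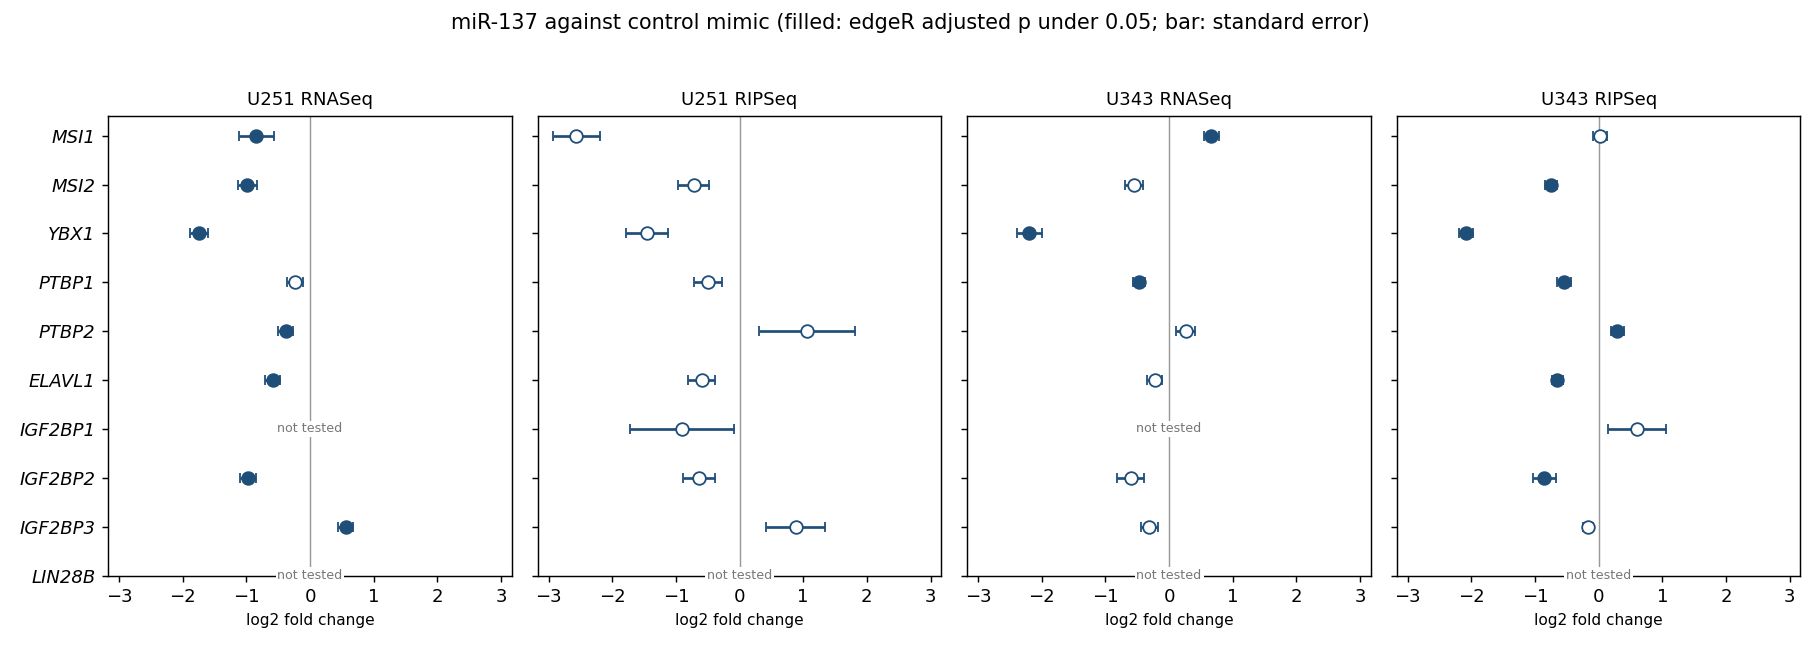
log2 fold change of each regulator, miR-137 against control (horizontal axis, bars are 1 standard error), in the 4 experiments; filled points passed the edgeR test at an adjusted p under 0.05 and genes under the count filter are marked as not tested. YBX1 lies at -1.46 to -2.20 in all panels, and MSI1 changes side between U251 and U343 RNASeq.

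Counted over the members that passed the filter, 6 of 8 fell in U251 RNASeq, where 29% of all 13052 genes tested fell, and 1 of 8 rose, where 28.7% of all genes rose. In U343 RNASeq 2 of 8 fell against 11.7% of all genes and 1 of 8 rose against 8.31%. In U343 RIPSeq 5 of 9 fell against 27.8% and 1 of 9 rose against 28.5%. In U251 RIPSeq 0 of 9 was called by edgeR in either direction, against 0.263% of all genes lower and 0.944% higher. In that experiment 4 members were at an unadjusted p under 0.05 (MSI1, MSI2, YBX1 and ELAVL1). DESeq2 called 2 there (MSI1 and YBX1, both lower), beside 4.24% of all genes. Without either control replicate, edgeR called most members there, in both directions, and most of all genes. These calls are not read as a result about the members. In these fits the lone control is assumed to vary like the miR-137 pair, the closest pair of libraries in the series, and without either miR-137 library edgeR called 0 members. In U343 RNASeq the counts were 0 without either control library, where 0 of all genes was called, 5 without miR-137 replicate 1, beside 39.6% of all genes, and 7 without miR-137 replicate 2, beside 37.7%. The median log2 fold change of the tested members was -0.72 in U251 RNASeq, -0.64 in U251 RIPSeq, -0.39 in U343 RNASeq and -0.55 in U343 RIPSeq, beside 0.02, -0.02, 0.02 and 0.00 over all genes. Upper-quartile scaling moved the median of all genes in U251 RNASeq by 0.14, from 3780 lower and 3749 higher genes to 3001 and 4588, and 6 members kept their call, PTBP2 being the one lost.

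**Figure D3:**
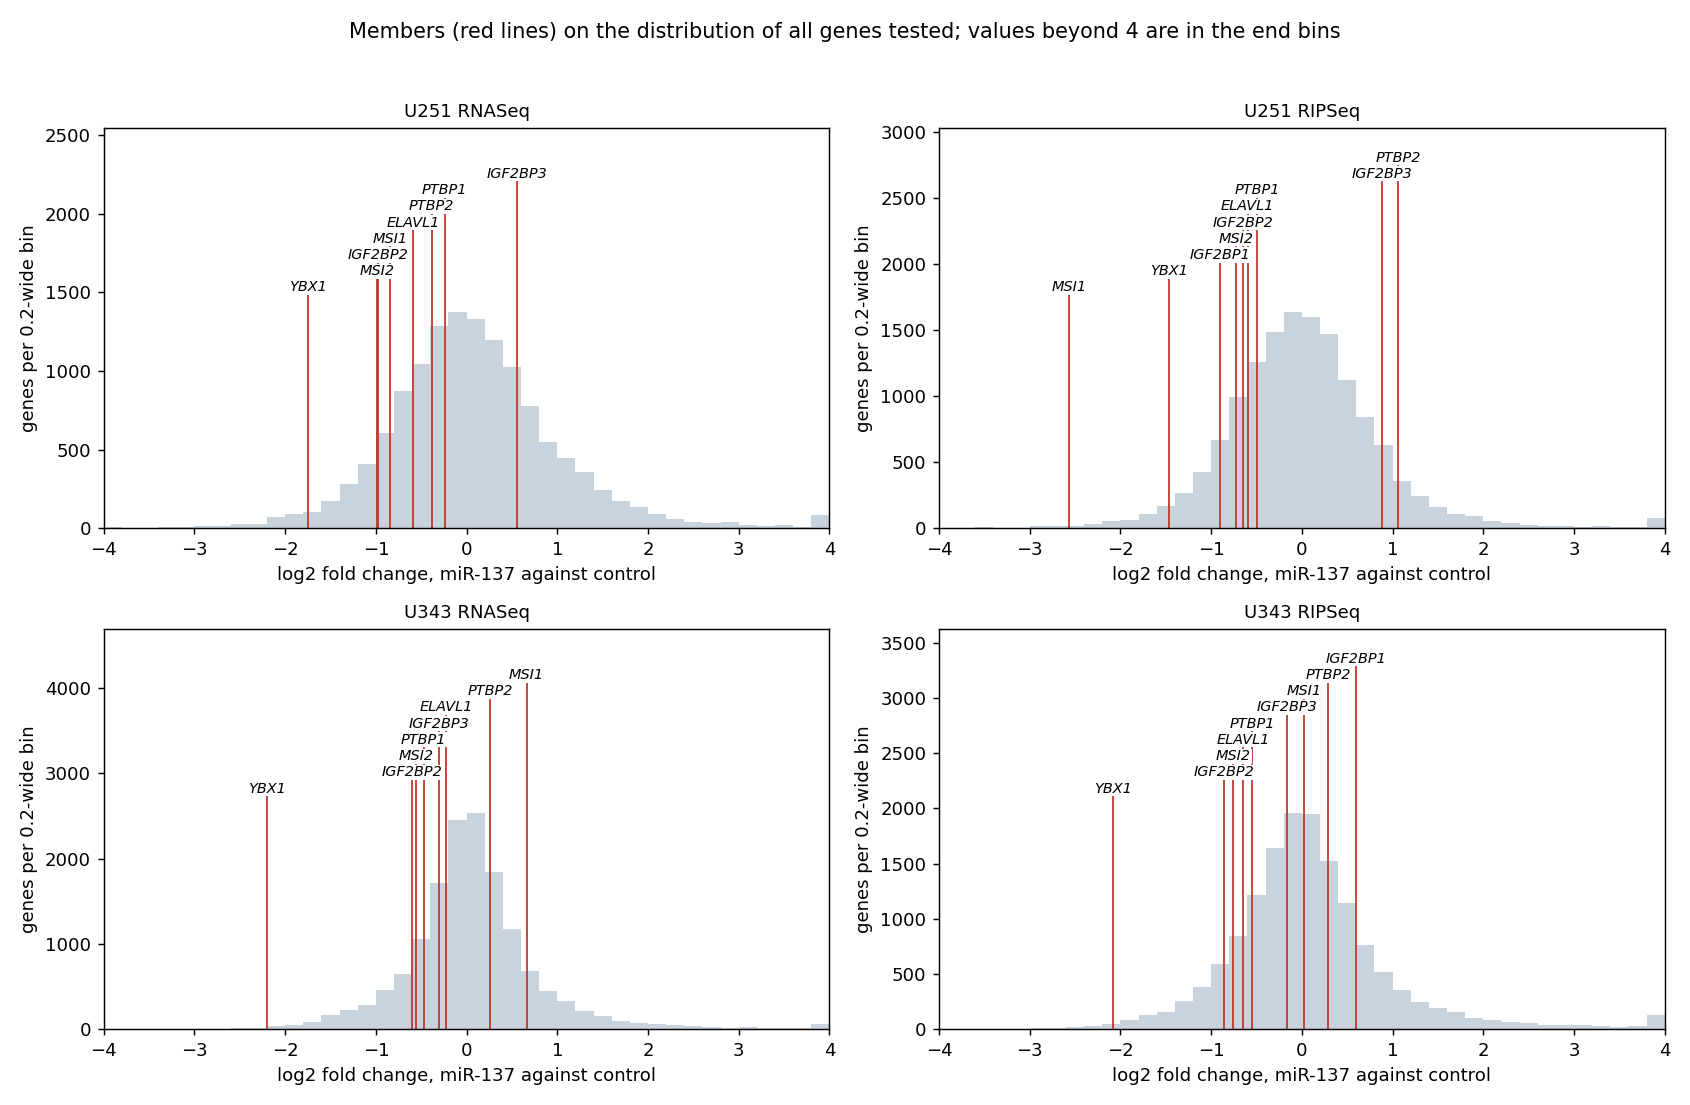
Histograms of the log2 fold change of all genes tested in each experiment (gray, genes per bin, values beyond 4 placed in the end bins), with the regulators that were tested marked by red lines of arbitrary height. YBX1 lies in the lower tail in each panel and MSI1 at -2.57 in the U251 RIPSeq panel, and the other lines fall in the body of the distribution.

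By the rule stated in the methods, a transcript counts as lower where Fisher's exact test gives an adjusted p under 0.001, with the odds ratio above 2, for each of the 4 ways to pair the control libraries with the miR-137 libraries. Such a test is made on reads of single libraries, so the spread between replicates does not enter it. In U251 RNASeq it called 1 of 10 members lower, YBX1, beside 2.21% of all genes, with odds ratios of 2.38 to 3.26 over the 4 pairs. In U251 RIPSeq it called MSI1 (odds ratios 3.64 to 9.03) and YBX1 (2.10 to 3.05), beside 1.49% of genes. In U343 it called YBX1 alone of the members, with odds ratios of 3.96 to 5.71 in RNASeq, beside 2.88% of genes, and 4.17 to 4.28 in RIPSeq, beside 3.4%. MSI1 in U251 RNASeq had odds ratios from 1.07 to 2.27 and was not called. With an odds ratio over 1.5 the rule added IGF2BP2 in U251 RNASeq and MSI2 in RIPSeq of both lines. At that threshold it called 1024 of all genes in U251 RNASeq, 745 in U251 RIPSeq and 1677 in U343 RIPSeq.

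In the control libraries, the share of PABP-bound RNA taken by a transcript was compared with its share of total RNA, in 1 edgeR fit per line. MSI1 had a larger share of the RIPSeq than of the RNASeq libraries in both lines, by 1.77 ± 0.33 on the log2 scale in U251 (adjusted p = 0.00579) and 1.72 ± 0.12 in U343 (adjusted p = 0.000223), which is 3.41 and 3.30 times. ELAVL1 was also higher in RIPSeq than in RNASeq, by 0.79 ± 0.18 in U251 (adjusted p = 0.0108) and 0.60 ± 0.10 in U343 (adjusted p = 0.00389). In U251, 5 of 10 members passed, beside 40.5% of all genes: the other members that were higher were PTBP1 (0.95 ± 0.20, adjusted p = 0.00844) and IGF2BP1, and MSI2 was lower (-1.004 ± 0.19, adjusted p = 0.00596). IGF2BP1 had 60 reads in the RIPSeq controls and 1 in the RNASeq controls, a ratio of 39.0 with an exact 95% interval of 6.74 to 1567. In U343, 3 of 9 passed, beside 33.9% of genes, the remaining one being IGF2BP2 (0.90 ± 0.25, adjusted p = 0.0281). YBX1 did not pass in U251 (-0.45 ± 0.26, adjusted p = 0.185) or U343 (0.08 ± 0.17, adjusted p = 0.755). The U251 count went to 0 and 1 without RNASeq control replicate 1 and 2, beside 10.6% and 11.6% of all genes, and to 8 without RIPSeq control replicate 1 or 2, beside 53.9% and 76.7%, whereas the U343 count stayed at 2 or 3 with MSI1 and ELAVL1 in each fit.

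Whether the response to miR-137 itself differed between PABP-bound and total RNA was tested with an interaction term, which uses the same control libraries as the comparison before it. By edgeR 0 of 10 members passed in U251, beside 0.134% of genes, and 0 of 9 in U343, beside 0.00649%, with 2 members in either line at an unadjusted p under 0.05 and 0 called by DESeq2. For MSI1 the fall in U251 was larger in RIPSeq by -1.77 ± 0.50 on the log2 scale (adjusted p = 0.151), and in U343 the response in RIPSeq was lower than in RNASeq by -0.64 ± 0.16 (adjusted p = 0.196). The others at an unadjusted p under 0.05 were IGF2BP1 in U251, which rests on 1 read in the RNASeq controls, and ELAVL1 in U343 (-0.42 ± 0.14, adjusted p = 0.219). Without U251 RIPSeq control replicate 1 MSI1 (lower) and PTBP2 (higher) passed, beside 20.1% of all genes, and without control replicate 2, 6 members did, beside 58% of all genes. Without U343 RNASeq miR-137 replicate 2, so with the library that lacks the interferon response, MSI1 and ELAVL1 passed, both lower in RIPSeq, beside 19.8% of all genes. For YBX1 the differences were 0.24 ± 0.36 in U251 (adjusted p = 0.707) and 0.11 ± 0.24 in U343 (adjusted p = 0.839), which does not show that the assays agreed.

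**Figure D4:**
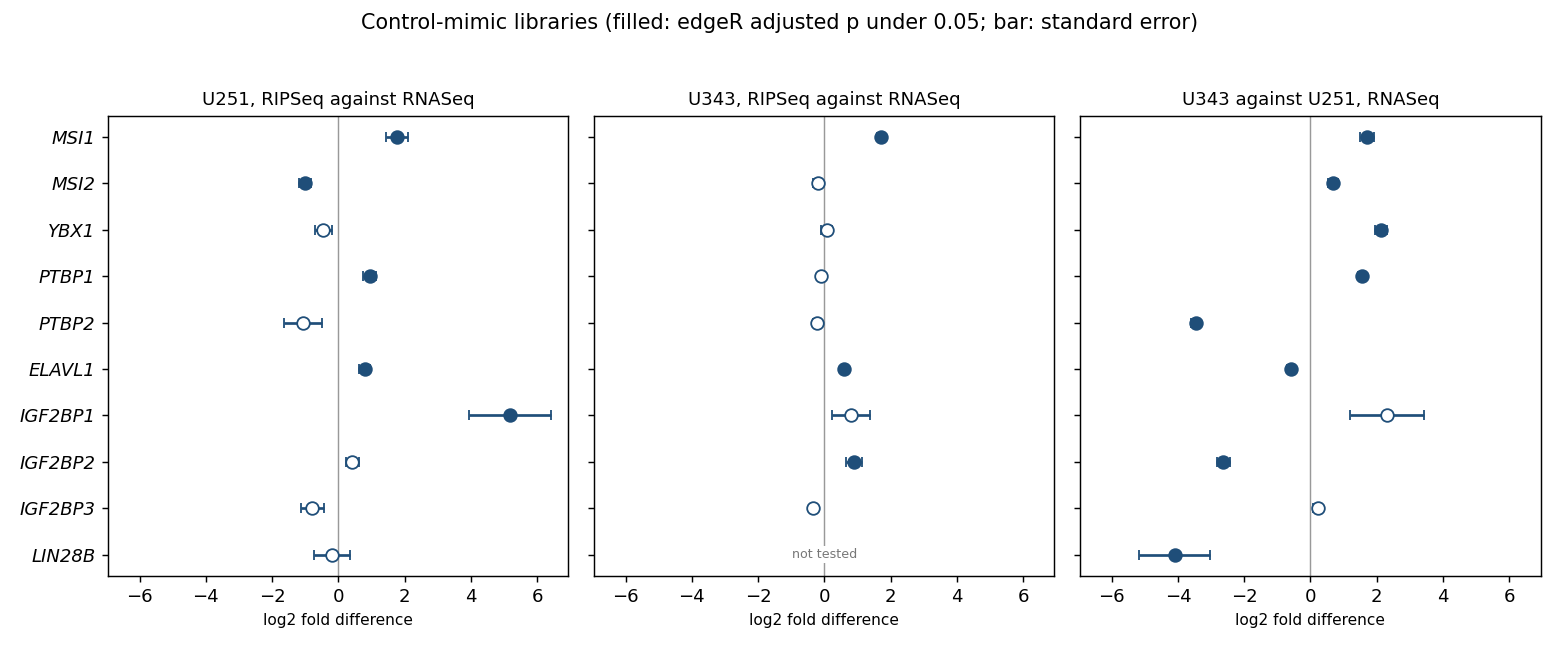
log2 differences between control-mimic groups (horizontal axis, bars are 1 standard error): RIPSeq against RNASeq in U251 and in U343, and U343 against U251 in RNASeq; filled points passed the edgeR test at an adjusted p under 0.05. MSI1 is above 0 in each panel, and PTBP2 and IGF2BP2 lie at -3.46 and -2.63 in the comparison of the lines.

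The baseline of the regulators differed between the lines. In RNASeq of control cells 8 of 10 members passed, beside 76.8% of all genes, so most genes differed, and the kit differed with the line. Higher in U343 were YBX1 (2.13 ± 0.19 on the log2 scale, adjusted p = 1.51e-05), MSI1 (1.71 ± 0.22, adjusted p = 0.000135), PTBP1 (1.56 ± 0.12, adjusted p = 4.67e-06) and MSI2 (0.69 ± 0.15, adjusted p = 0.00239). Lower in U343 were PTBP2 (-3.46 ± 0.14, adjusted p = 2.23e-07, 11.04 times), IGF2BP2 (-2.63 ± 0.19, adjusted p = 3.82e-06, 6.18 times) and ELAVL1 (-0.59 ± 0.12, adjusted p = 0.00207). LIN28B passed with 2 reads in the U343 controls against 16 in the U251 controls, a level 20.0 times lower with an exact 95% interval of 4.71 to 179. U343 held more of the PTBP form of dividing cells and less of the neuronal form than U251, relative to the other genes of each library. The summed neuron markers, mostly NEFL, were higher in the U251 controls, as given earlier. Of the others, GAD1, MAP2 and SNAP25 were higher in U251, SYP was higher in U343 and the ranges of SLC17A7 overlapped. IGF2BP3 (0.22 ± 0.13, adjusted p = 0.160) and IGF2BP1 (adjusted p = 0.0894, from 14 against 1 reads) did not pass.

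On a scale common to the 16 libraries, MSI1 rose in order from U251 RNASeq with miR-137 (2.72 ± 1.14 CPM, SD, n = 2) and U251 RIPSeq with miR-137 (2.73 ± 0.90) to U251 RNASeq control (5.02 ± 0.39), U251 RIPSeq control (15.9 ± 3.07) and U343 RNASeq control (16.6 ± 1.61). It was higher in U343 RNASeq with miR-137 (26.5 ± 0.88), U343 RIPSeq control (52.9 ± 7.16) and U343 RIPSeq with miR-137 (53.7 ± 0.34). The U251 miR-137 pair, the U251 RIPSeq and U343 RNASeq controls, and the U343 RIPSeq pair lay within each other's spread. For YBX1 the order began with U251 RIPSeq and RNASeq with miR-137 (65.0 ± 1.14 and 74.2 ± 7.45 CPM) and went on to U251 RIPSeq control (177 ± 66.0), U343 RNASeq with miR-137 (249 ± 59.1), U251 RNASeq control (256 ± 36.1) and U343 RIPSeq with miR-137 (273 ± 14.9). It ended with the U343 controls (1129 ± 62.7 in RNASeq and 1153 ± 16.0 in RIPSeq), which did not differ beyond their spread. YBX1 in U343 RNASeq with miR-137 lay within the spread of the U251 RNASeq controls on this scale. Over the 8 group means and 9805 genes, the patterns most like MSI1 were those of ITGB4 (Pearson r = 0.980), TMEM150A (0.978) and CTNS (0.977), and those most like YBX1 were CUL4A (0.997), TCHP (0.987) and PPP1R14B (0.984). MSI1 itself did not average 50 reads in each group, as the compared genes did, since it had 23 and 42 reads in U251 RNASeq with miR-137. These are descriptions over groups that share line, kit and depth.

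The response to miR-137 was compared between the lines in an interaction term over the 8 libraries of an assay. In RNASeq 3 of 10 members passed, beside 25.2% of genes. The response of MSI1 was higher in U343 by 1.499 ± 0.33 on the log2 scale (edgeR adjusted p = 0.0134) and that of PTBP2 by 0.64 ± 0.18 (adjusted p = 0.0329), and that of IGF2BP3 was lower by -0.87 ± 0.19 (adjusted p = 0.0118). In RIPSeq 1 of 9 passed, beside 3.28%, again MSI1, at 2.65 ± 0.40 (adjusted p = 0.0231). The RNASeq difference of MSI1 was as large for the U343 library without the interferon response (1.52) as for the one with it (1.48). The PTBP2 call was lost with upper-quartile scaling (0.57, adjusted p = 0.0508) and held in the fits that left out either U343 miR-137 library and in no other that left out a library. The IGF2BP3 call was lost without U251 control replicate 2, U251 miR-137 replicate 1 or either U343 control (adjusted p of 0.0503 to 0.0571). The RNASeq count went to 0 without U343 control replicate 2 and to 5 without U343 miR-137 replicate 1 or 2, beside 12.2%, 32.7% and 36.9% of all genes in that order. The RIPSeq call was lost with a replicate block (2.67, adjusted p = 0.0546) and without any 1 of 6 libraries, the U251 controls being the exceptions, where 33.7% and 52.8% of all genes were called. For YBX1 the differences of -0.46 ± 0.26 in RNASeq (adjusted p = 0.241) and -0.57 ± 0.31 in RIPSeq (adjusted p = 0.344) did not pass.

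Paralogs of the members were followed as a list of 7 genes, chosen by family. CSDA (YBX3), the closest relative of YBX1 among them and also a cold-shock-domain protein, was at 209.9 and 207 CPM in U251 RNASeq controls and at 69.8 and 69.7 CPM with miR-137. It fell there by 1.58 ± 0.13 on the log2 scale (edgeR adjusted p = 3.03e-07), in U343 RNASeq by 0.84 ± 0.13 (adjusted p = 0.0231) and in U343 RIPSeq by 0.80 ± 0.09 (adjusted p = 0.000186). In U251 RIPSeq it went from 242 and 291 CPM to 107 and 104 CPM (-1.33 ± 0.23, adjusted p = 0.0847). ROD1 (PTBP3), the relative of PTBP1, fell in U343 RNASeq (-0.52 ± 0.11, adjusted p = 0.0432) and U343 RIPSeq (-0.29 ± 0.08, adjusted p = 0.0198), with values of 0.13 and 0.47 in U251 RNASeq and RIPSeq that did not pass. ELAVL2, ELAVL3, ELAVL4, LIN28A and YBX2 were at most 3.68 CPM in any library and none was called. In total 1 of 3 tested paralogs fell in U251 RNASeq (29% of all genes), 2 of 5 in U343 RNASeq (11.7%) and 2 of 4 in U343 RIPSeq (27.8%). In U343 RNASeq CSDA and ROD1 gave -0.99 and -0.62 for the library without the interferon response alone and -0.71 and -0.44 for the one with it. In U251 RIPSeq 0 of 4 was called, with 2 at an unadjusted p under 0.05 and 1 called by DESeq2.

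Among 36 other regulators of mRNA fate, 9 of 33 tested fell and 11 rose in U251 RNASeq, near the 29% and 28.7% of all genes. The splicing factor MBNL2 fell there from 527 ± 58.1 to 244 ± 23.4 CPM (SD, n = 2), a log2 fold change of -1.11 ± 0.14 (edgeR adjusted p = 2.36e-05). ZFP36, which destabilizes AU-rich mRNAs, rose by 1.86 ± 0.21, and CPEB2, a cytoplasmic polyadenylation factor, rose by 1.77 ± 0.20. In U343 RNASeq 3 of 34 fell and 1 rose, where 11.7% and 8.31% of all genes did. DICER1, the nuclease that cuts microRNA precursors, fell by 1.10 ± 0.09 (adjusted p = 0.00724) and MBNL3 by 1.33 ± 0.15 (adjusted p = 0.0121), while CPEB2 rose by 1.24 ± 0.27 (adjusted p = 0.0448). For the library without the interferon response alone, DICER1 gave -1.08, MBNL3 -1.33 and CPEB2 0.84. For the one with it they gave -1.13, -1.34 and 1.54. In U343 RIPSeq 8 of 34 fell and 14 rose, where 27.8% and 28.5% of all genes did, with DICER1 at -1.10 ± 0.10, MBNL3 at -1.07 ± 0.20, ZFP36 at 1.81 ± 0.16 and CPEB2 at 1.22 ± 0.10. In U251 RIPSeq 0 of 34 was called, with 2 at an unadjusted p under 0.05 and 1 called by DESeq2. The list medians of 0.01, -0.09, 0.08 and -0.03 in U251 RNASeq, U251 RIPSeq, U343 RNASeq and U343 RIPSeq were near those of all genes.

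Transcripts that the members are known to bind or regulate moved in both directions. In U251 RNASeq 6 of 18 tested fell and 4 rose (29% and 28.7% of all genes), in U343 RNASeq 3 of 19 fell and 2 rose (11.7% and 8.31%), and in U343 RIPSeq 6 of 20 fell and 6 rose (27.8% and 28.5%), which is near the shares of all genes. In U251 RIPSeq 0 of 18 was called, with 3 at an unadjusted p under 0.05 and 1 called by DESeq2. XIAP, an inhibitor of apoptosis, fell in U251 RNASeq by 1.18 ± 0.13 (edgeR adjusted p = 4.64e-06) and rose in U343 RIPSeq by 0.37 ± 0.09 (adjusted p = 0.0109). PTGS2, an AU-rich mRNA bound by ELAVL1 that encodes the inducible cyclooxygenase, rose in U251 RNASeq by 2.48 ± 0.24 and in U343 RIPSeq by 3.78 ± 0.31. VEGFA, the angiogenic growth factor, rose in U251 RNASeq by 1.40 ± 0.13 and fell in U343 RIPSeq by 0.47 ± 0.08 (adjusted p = 0.00168). HMGA2 encodes a chromatin protein, and its mRNA is bound by IGF2BP proteins. In U343 it fell by 2.31 ± 0.52 in RNASeq (adjusted p = 0.0468) and by 2.19 ± 0.32 in RIPSeq (adjusted p = 0.000822). Its level was low, at 1.97 ± 1.06 CPM (SD, n = 2) in RNASeq controls and 0.39 ± 0.12 with miR-137. The cyclins CCNA2 (-1.35 ± 0.11 in RNASeq) and CCNB1 (-1.43 ± 0.08 in RIPSeq) fell in U343, whereas CD44 and BTRC rose in RNASeq (0.61 ± 0.10 and 0.66 ± 0.13) and MCL1, which blocks apoptosis, rose in RIPSeq (0.97 ± 0.09). CD44, a cell-surface receptor, fell in U251 RNASeq by 0.79 ± 0.17 (adjusted p = 0.00133). In U343 RNASeq HMGA2, CCNA2, CD44 and BTRC gave -2.64, -1.46, 0.52 and 0.76 for the library without the interferon response alone. For the one with it they gave -2.04, -1.27, 0.69 and 0.54. In the same order of libraries, CCNB1 gave -1.21 and -1.16 and VEGFA gave -0.82 and -0.22. The other named genes depended on the library: MCL1 gave -0.77 and 0.95, XIAP -0.27 and 0.48, and PTGS2 0.44 and 4.66.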

How the data were processed

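RNASeq and PABP RIPSeq were measured in 2 glioblastoma lines. The authors aligned the reads to hg18 (named in the submitters' notes) with RMAP and counted them on a merged RefSeq transcript per gene; the version of RMAP is not given in the sources used here. The deposited values are raw counts, without normalization. A repeated U251 line of SLC35E2 was dropped, and the U251 strand column, the same for every gene, was not used.

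Groups came from the labels. edgeR 4.0.16 (R 4.3.3; TMM, filterByExpr, quasi-likelihood F test, Benjamini-Hochberg over all genes tested, threshold 0.05) was run per experiment, per line for assay contrasts and per assay for line contrasts. Ratios of low counts used summed reads over TMM-scaled totals with an exact (Clopper-Pearson) 95% interval. Two-sided Fisher's exact tests (scipy 1.17.1) applied the rule of the methods. The code was tested on simulated data. Alternatives were DESeq2 1.42.0, upper-quartile factors, other filters, a replicate block, joint fits, other rule thresholds and each library left out.

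Named genes were the 10 members, their paralogs and, from the 2 other lists, up to 2 falls and 2 rises per comparison past the threshold, the largest ones averaging 50 or more reads in the higher group and of 1 direction in all 4 pairs. Some results of this rule are not reported here. The members and lists were chosen with earlier results of these data known. The genes most like MSI1 and YBX1 were those of highest Pearson r over group means of log2 CPM among genes averaging 50 or more reads in each group. A further U251 replicate named in the methods was not analysed here. Spliced lengths were not used here, so levels were not compared between genes.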

Additional observations from a re-analysis of the deposited data

Results flagged for a closer look

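A difference between the responses of the cell lines was found for 4 results, each by a test of the difference itself (the interaction of transfection and line, edgeR quasi-likelihood test, Benjamini-Hochberg over all genes). The response of MSI1 was higher in U343 than in U251 by 1.499 ± 0.33 (SE) on the log2 scale in RNASeq (adjusted p = 0.0134) and by 2.65 ± 0.40 in RIPSeq (adjusted p = 0.0231). That of PTBP2 was higher by 0.64 ± 0.18 in RNASeq (adjusted p = 0.0329). That of IGF2BP3 was lower by -0.87 ± 0.19 in RNASeq (adjusted p = 0.0118). These calls held in 12 of 13 alternative settings for MSI1 in RNASeq, 6 of 13 for MSI1 in RIPSeq, 6 of 13 for PTBP2 and 9 of 13 for IGF2BP3. The RIPSeq call of MSI1 held in no fit that left out a library other than a U251 control. In RNASeq 3 of 10 members passed, beside 25.2% of all genes, and in RIPSeq 1 of 9, beside 3.28%. The RNASeq count is thus near the share of all genes. Line and library kit cannot be told apart.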

How the results depend on the processing

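Of the counts of called members and of members lower by the rule, 116 values under another setting stayed within 1.5 times the count reported, and 35 did not. Without each library in turn the count ranged from 0 to 9 in U251 RIPSeq, 0 to 7 in U343 RNASeq, 0 to 8 for RIPSeq against RNASeq in U251, 0 to 6 and 0 to 2 for transfection by assay in U251 and U343, and 0 to 5 for transfection by line in RNASeq and in RIPSeq. The libraries whose omission moved a count by over 1.5 times were the U251 RIPSeq controls (U251 RIPSeq and transfection by assay in U251), each U343 RNASeq library (U343 RNASeq), each control library of U251 (RIPSeq against RNASeq), U343 RNASeq miR-137 replicate 2 (transfection by assay in U343), each RNASeq library except U251 control replicate 1 and U251 miR-137 replicate 2 (transfection by line in RNASeq) and each RIPSeq library (transfection by line in RIPSeq). In the fits that left out a library the share of all genes called moved as well, so those counts do not stand alone. The joint fit of the 8 libraries of a line called 3 members in U251 RNASeq, beside 20.8% of all genes, and 4 in U251 RIPSeq, beside 16.6%. DESeq2 called 2 in U251 RIPSeq, beside 4.24%, and 5 in U343 RNASeq, beside 21.4%. With the replicate block the count was 1 in U251 RIPSeq (MSI1, lower), beside 5.69% of all genes. It was 0 for transfection by line in RIPSeq, beside 0.877%. The block changed no other count by over 1.5 times. The replicate numbers were not shown to pair the libraries: the deviations of same-numbered libraries correlated across genes with r of -0.24 to 0.21 in U251 and -0.26 to 0.40 in U343. With an odds ratio over 1.5 the rule called 2 members in U251 RNASeq, beside 1024 of all genes, and 2 in U343 RIPSeq, beside 1677. Values that turned sign without control replicate 1 or its counterpart, replicate 2, were IGF2BP1 in U251 RIPSeq (0.60 and -1.55), MSI1 in U343 RIPSeq (-0.12 and 0.16) and PTBP1 for RIPSeq against RNASeq in U343 (0.0086 and -0.20 without the RIPSeq controls), and none of these had passed the test. Among values of single members, 547 kept both their side and whether they passed. Of the others that kept their side, 54 lost the call and 42 gained it, and 3 turned to the other side. With 2 libraries per group, leaving out 1 changes the estimate of the spread. Beyond that, the cause was not tested.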
